A study of Mus musculus with 4 samples.

Results

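Hox genes are the homeodomain transcription factor genes that stand in 4 clusters of the mouse genome, Hoxa, Hoxb, Hoxc and Hoxd. The Smad1 peaks called within 20 kb of the gene bodies of 38 listed Hox genes, of 21938 protein-coding genes in all, were taken from the 5 deposited peak lists. Of the 10466 sites that both peak callers found in vehicle-treated cells, here called common DMSO sites, 6 lay in these windows. The other lists held 12 DMSO QESEQ calls of 26070, 6 DMSO MACS calls of 15927, 10 IWR-1 QESEQ calls of 16261 and 4 calls of a second MACS list of 7815. The windows cover 611.0 kb.

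The libraries came from C57BL/6 GFP-Bry ES cells, a mouse line in which GFP is knocked into the Brachyury locus, differentiated as embryoid bodies (EBs), dissociated, reaggregated and cultured for 24 h to day 4 with vehicle (DMSO) or 10 µM of IWR-1, an inhibitor of canonical Wnt signalling. For each treatment there was 1 library of Smad1 ChIP and 1 of input chromatin, so there is no replicate and no test between treatments. Read counts are not part of the lists, and the depth of a peak is unknown. The cells were EBs of mixed types that the peak lists cannot resolve, and markers of a cell type cannot be checked in them. Labels and contents were at odds. The lists from which the common sites had been built were taken as the DMSO lists, and the IWR-1 QESEQ list is labelled as IWR-1. The common and DMSO MACS lists belong to the sample labelled as DMSO input. The DMSO QESEQ list belongs to the sample labelled as IWR-1 input. The second MACS list carries IWR-1 in its own name, while the sample it belongs to is labelled as DMSO. It was taken for IWR-1 because no other ChIP remained, and this uncertain reading holds wherever the list is named.

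Hox genes give cells their position along the head to tail axis. Within each cluster the genes lie in the order in which they are switched on in the primitive streak and along the body, from the low-numbered anterior genes to the high-numbered posterior ones, and genes with the same number in different clusters are paralogues. Retinoic acid, Wnt and FGF signals and the Cdx factors act upstream of the clusters, Polycomb proteins keep them silent, and the TALE homeodomain proteins Pbx, Meis and Pknox bind DNA together with Hox proteins. Smad1 carries BMP signals from the receptors to the nucleus, where it binds GC-rich elements and the GTCT box, and BMP is itself a signal of the posterior streak from which blood mesoderm comes.

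The sequences of the 6 common sites are shown first because all the comparisons below start from them. Each is the central stretch of at most 240 bases, on the plus strand of mm10, read from the reference genome. Capitals mark runs of at least 7 A or 7 T, and any match on either strand to 6 motifs. For Smad proteins these were the GC-rich element GGCGCC, its variant spelled GGAGCC, the palindrome of the box GTCTAGAC and the single box within CAGACA. For TCF/LEF, the factors of canonical Wnt signalling, they were CTTTGAT and the related form CTTTGTT.

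Hoxb13 upstream site, chr11:96179376-96179615: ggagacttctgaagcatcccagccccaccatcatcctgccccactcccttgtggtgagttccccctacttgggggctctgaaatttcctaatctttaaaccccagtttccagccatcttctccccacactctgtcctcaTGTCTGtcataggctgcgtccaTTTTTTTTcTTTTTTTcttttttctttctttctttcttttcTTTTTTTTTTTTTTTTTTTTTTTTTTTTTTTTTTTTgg
Hoxb9 upstream site, chr11:96254769-96255008: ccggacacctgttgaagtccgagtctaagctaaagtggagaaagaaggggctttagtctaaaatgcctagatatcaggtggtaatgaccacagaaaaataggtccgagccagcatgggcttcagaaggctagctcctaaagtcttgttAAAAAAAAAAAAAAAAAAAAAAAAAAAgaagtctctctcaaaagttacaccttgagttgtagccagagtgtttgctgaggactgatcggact
Hoxb8 upstream site, chr11:96280387-96280626: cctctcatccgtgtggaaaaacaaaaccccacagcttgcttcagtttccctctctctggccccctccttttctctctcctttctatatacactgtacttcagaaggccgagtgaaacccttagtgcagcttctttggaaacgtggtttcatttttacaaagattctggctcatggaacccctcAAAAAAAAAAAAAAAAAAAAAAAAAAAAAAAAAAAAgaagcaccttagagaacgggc
Hoxd4 upstream site, chr2:74716770-74717009: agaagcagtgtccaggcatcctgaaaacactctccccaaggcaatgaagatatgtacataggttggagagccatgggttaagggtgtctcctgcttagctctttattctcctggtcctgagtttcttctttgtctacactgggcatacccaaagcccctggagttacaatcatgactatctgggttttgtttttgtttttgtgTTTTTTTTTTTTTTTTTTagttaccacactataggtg
Hoxa3 intron site, chr6:52185180-52185419: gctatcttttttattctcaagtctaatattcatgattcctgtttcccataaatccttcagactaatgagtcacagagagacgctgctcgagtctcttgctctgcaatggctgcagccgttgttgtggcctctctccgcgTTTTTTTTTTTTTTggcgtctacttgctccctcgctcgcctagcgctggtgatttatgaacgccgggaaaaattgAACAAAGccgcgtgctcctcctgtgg
Hoxa7 to Hoxa9 site, chr6:52222651-52222890: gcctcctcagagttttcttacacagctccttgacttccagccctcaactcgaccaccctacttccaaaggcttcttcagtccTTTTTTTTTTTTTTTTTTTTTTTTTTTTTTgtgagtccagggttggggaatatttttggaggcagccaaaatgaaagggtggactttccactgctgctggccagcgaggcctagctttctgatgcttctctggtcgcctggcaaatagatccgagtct

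The next 4 are the stretches where 2 lists overlapped with no common DMSO site: those upstream of Hoxb1 and downstream of Hoxd8 were in both IWR-1 lists and in no DMSO list, and those near Hoxb6 and Hoxb2 were in the QESEQ lists of both treatments.

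Hoxb1 upstream locus, chr11:96363821-96364060: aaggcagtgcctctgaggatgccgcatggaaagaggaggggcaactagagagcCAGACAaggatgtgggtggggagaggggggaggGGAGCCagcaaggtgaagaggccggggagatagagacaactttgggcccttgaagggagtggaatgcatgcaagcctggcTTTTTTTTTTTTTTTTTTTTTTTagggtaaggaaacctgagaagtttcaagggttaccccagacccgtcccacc
Hoxd8 downstream locus, chr2:74709501-74709740: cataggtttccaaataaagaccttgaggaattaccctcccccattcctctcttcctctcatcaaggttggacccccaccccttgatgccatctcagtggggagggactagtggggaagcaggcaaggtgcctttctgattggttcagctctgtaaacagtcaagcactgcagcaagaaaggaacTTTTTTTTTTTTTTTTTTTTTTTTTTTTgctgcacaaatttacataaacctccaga
Hoxb6 locus, chr11:96295341-96295580: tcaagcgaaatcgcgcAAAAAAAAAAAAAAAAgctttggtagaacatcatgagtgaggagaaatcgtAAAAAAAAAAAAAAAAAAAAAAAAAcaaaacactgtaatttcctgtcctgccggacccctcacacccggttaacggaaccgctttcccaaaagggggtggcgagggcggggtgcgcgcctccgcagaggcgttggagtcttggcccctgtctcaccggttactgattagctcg
Hoxb2 upstream locus, chr11:96350376-96350615: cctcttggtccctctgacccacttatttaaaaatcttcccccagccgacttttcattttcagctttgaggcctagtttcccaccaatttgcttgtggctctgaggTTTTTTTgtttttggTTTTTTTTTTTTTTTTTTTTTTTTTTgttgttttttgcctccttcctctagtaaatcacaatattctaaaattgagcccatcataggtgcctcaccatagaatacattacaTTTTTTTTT

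A long run of A or T stands in every one of these 10 sequences. The longest is 36 bases in the sites upstream of Hoxb13 and of Hoxb8, 30 in the Hoxa7 to Hoxa9 site, 27 in the Hoxb9 site, 18 in the Hoxd4 site and 14 in the Hoxa3 intron site. In the other 4 loci it is 28 bases at Hoxd8, 26 at Hoxb2, 25 at Hoxb6 and 23 at Hoxb1.

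The common DMSO sites were unevenly placed over the clusters. Hoxb, on chromosome 11, held 3, Hoxa, on chromosome 6, held 2, Hoxd, on chromosome 2, held 1 and Hoxc, on chromosome 15, held 0. Because the windows of neighbouring genes overlap, these 6 sites stood within 20 kb of 17 of the 38 genes (44.7%, 95% exact binomial interval 28.6 to 61.7), against 35.1% of all protein-coding genes. The 35.1% lies inside the interval, and the interval covers counting error only and treats genes that share a site as separate. Hox genes were also short, with a median body of 3.5 kb against 17.4 kb over all protein-coding genes, so that their windows were shorter too. Per length, the Hox windows held 0.982 common sites per 100 kb and the windows of all protein-coding genes 0.504.

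The genes with a common site within 20 kb were Hoxa3, Hoxa4, Hoxa5, Hoxa6, Hoxa7, Hoxa9, Hoxa10 and Hoxa11 (8 of 10 in Hoxa), Hoxb6, Hoxb7, Hoxb8, Hoxb9 and Hoxb13 (5 of 10 in Hoxb) and Hoxd3, Hoxd4, Hoxd8 and Hoxd9 (4 of 9 in Hoxd). None of the 9 Hoxc genes had one. By paralogue number, 4 of 11 genes of groups 1 to 4, 7 of 11 of groups 5 to 8 and 6 of 16 of groups 9 to 13 had a site in reach. The sites themselves, each given to the nearest start of a main transcript, numbered 2, 1 and 3 in these ranges, too few to show an order along the clusters.

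The strongest of the 6 lay 14.8 kb upstream of Hoxb13, the most posterior gene of its cluster, in sequence with no annotated gene. This site, chr11:96179186-96179806, had a DMSO MACS score of 128.15, which put it at percentile 94.2 of all DMSO MACS calls by score. The second MACS list also called it (score 62.72, percentile 50 of that list), the highest of the 4 scores this list gave near Hox genes, and the IWR-1 QESEQ list had no call there. MACS scores were ranked within a list and never compared between lists.

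The other Hoxb sites were nearest to Hoxb8 and to Hoxb9, the latter in the long interval between Hoxb9 and Hoxb13. One lay 1398 bp upstream of the start of Hoxb8, a trunk gene also known for holding myeloid progenitors in an immature state, between Hoxb8 and Hoxb9 at chr11:96280146-96280868, with a score of 86.48 (percentile 81.1). It was the only common site within 2 kb of the start of a Hox main transcript. Another lay 16.5 kb upstream of Hoxb9, a gene of the thoracic region, in intron 1 of the lincRNA gene Gm53 at chr11:96254744-96255034, with a score of 67.5 (percentile 54.8). Neither of these sites overlapped a call of an IWR-1 list.

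In Hoxa, a site with a score of 88.83 (percentile 82.9) lay in intron 2 of Hoxa3, a gene needed for the thymus and the parathyroid, at chr6:52185134-52185465. Its centre was 6451 bp downstream of the start of Hoxa4, whose gene lies within the long gene model of Hoxa3. It stood 1444 bp upstream of the start of another coding transcript of Hoxa3, 4880 bp from the coding sequence of Hoxa4 and 12485 bp from that of Hoxa3, and it overlapped no call of an IWR-1 list. The other Hoxa site, chr6:52222388-52223153, lay between Hoxa7 and Hoxa9, 534 bp from the gene body of Hoxa7 and 916 bp upstream of the start of a coding transcript of Hoxa7 other than the main one, and its edge overlapped the untranslated part of exon 2 of Hoxa9, a gene that is active in blood stem cells and leukaemia. It had the lowest score of the 6, 63.1 (percentile 44.7), and overlapped a call of the second MACS list with a score of 50.16, which is at percentile 0.947 of that list, next to the lowest score the list holds, 50.

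The single Hoxd site lay 5081 bp upstream of the main start of Hoxd4, a gene of the hindbrain and neck, at chr2:74716759-74717021. It stood inside the gene models of both Hoxd3 and Hoxd4, outside their main transcripts, and had a score of 65.52 (percentile 50.3) with no IWR-1 call. By score the 6 sites thus ran from 63.1 to 128.15, with a median percentile of 68 against 52.8 over all common sites. The sites upstream of Hoxb9, upstream of Hoxd4 and between Hoxa7 and Hoxa9 were close together in score, and with 1 library there is no spread to separate them.

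**Figure D1:**
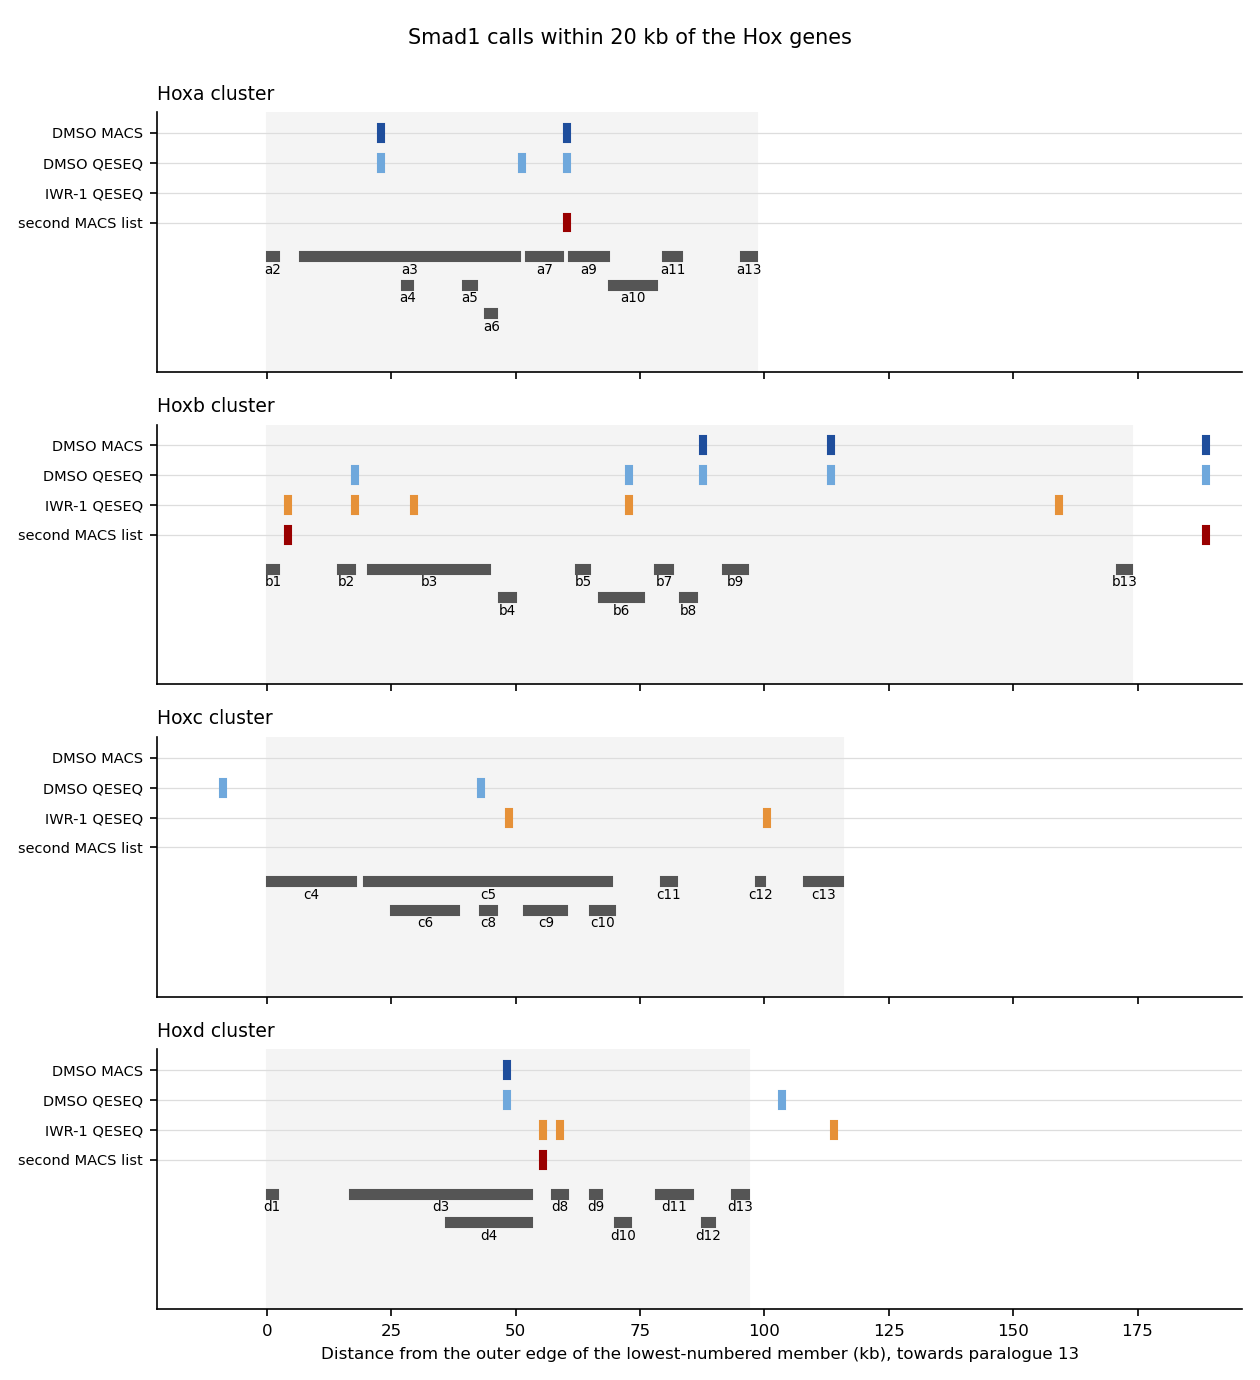
Position of each Smad1 call along the 4 Hox clusters, with the distance in kb from the outer edge of the lowest-numbered listed gene on the x axis and 1 row per list. Grey boxes are the gene bodies of the listed Hox genes, the shaded area is the span of the cluster, and call marks are drawn wider than the calls. Common DMSO sites are where both DMSO rows have a mark (3 in Hoxb, 2 in Hoxa, 1 in Hoxd, 0 in Hoxc), and none of these has an IWR-1 QESEQ mark.

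How these sites stood after Wnt inhibition was read from the IWR-1 lists. None of the 6 common Hox sites overlapped an IWR-1 QESEQ call, so 6 of 6 were without one (95% exact interval 54.1 to 100%), against 63% of all common sites. The 63% lies inside that interval. With the second MACS list in place of the IWR-1 QESEQ list, 2 of the 6, upstream of Hoxb13 and between Hoxa7 and Hoxa9, had a call. Of all 12 DMSO QESEQ calls near Hox genes, 10 were without an IWR-1 QESEQ call (83.3%, interval 51.6 to 97.9), against 74.2% over that list. Those that had one were the loci of Hoxb6 and Hoxb2.

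Calls in the IWR-1 lists were nevertheless frequent near Hox genes. An IWR-1 QESEQ call lay within 20 kb of 25 of the 38 genes (65.8%, interval 48.6 to 80.4), against 47.2% of all protein-coding genes, a share just below the interval, and these 25 genes stand on 10 calls. A call of the second MACS list lay within 20 kb of 16 of 38 (42.1%, interval 26.3 to 59.2), against 26.8%. For either DMSO list the count was 29 of 38 (76.3%, interval 59.8 to 88.6), against 64.3%. In density the Hox windows held 1.64 IWR-1 QESEQ calls per 100 kb against 0.807 in the windows of all protein-coding genes, 1.96 DMSO QESEQ calls against 1.28, 0.982 DMSO MACS calls against 0.723, and 0.655 calls of the second MACS list against 0.352. All 4 lists were denser near Hox genes, and the counts behind these densities are small. The Hox windows were also richer in GC (48.3% against 43%) and had less repeat-masked sequence (17.9% against 30.6%), and the part of either in the densities was not tested.

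**Figure D2:**
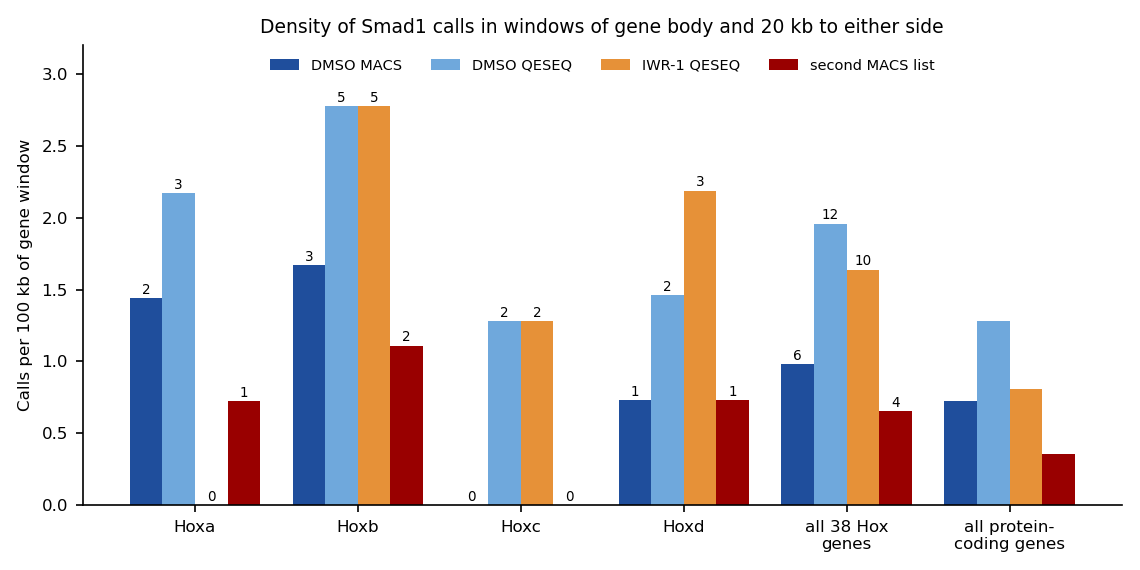
Calls per 100 kb of gene window (gene body and 20 kb to either side, overlapping windows joined) for the 4 clusters, for all 38 Hox genes and for all protein-coding genes, with 1 bar per list and the number of calls above each Hox bar. Hoxa has 0 IWR-1 QESEQ calls where Hoxb has 5, and Hoxc has 0 calls in either MACS list.

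Most IWR-1 QESEQ calls near Hox genes did not overlap a DMSO call. Of the 10 near Hox genes, 8 overlapped no call of a DMSO list (80%, interval 44.4 to 97.5), against 52.9% over that list. Of the 4 calls of the second MACS list, 2 overlapped none (50%, interval 6.76 to 93.2), against 29%. The 52.9% and the 29% lie inside these intervals.

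When overlapping calls of the 4 lists were joined, the Hox windows held 20 loci of 274 to 766 bp. Of these, 8 were called with DMSO only, 8 in IWR-1 lists only and 4 with both. This split takes the second MACS list for IWR-1. In an alternative added after the data were seen, this list alone was read by its sample label, as DMSO. The counts were then 10, 6 and 4. Loci with IWR-1 calls only were thus 40% of the Hox loci (interval 19.1 to 63.9), against 24% of the 27580 loci around all protein-coding genes. Loci with DMSO calls only were also 40%, against 51%, and loci with both were 20% (interval 5.73 to 43.7), against 25%. A call in 2 or more lists was found at 10 Hox loci (50%, against 42.2%). None of the 20 loci was in all 4 lists, against 5.54% of the loci around all genes, and a count of 0 of 20 allows a share of up to 16.8% (upper end of the exact interval).

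The clusters differed in which treatment's calls they held. Hoxa had 3 loci, all with a DMSO call and 1 of them also with a call of the second MACS list. Its window of 138.5 kb held 0 IWR-1 QESEQ calls. Hoxb had 8 loci, of which 5 had a DMSO call and 6 an IWR-1 call. Hoxc had 4 loci, 2 with DMSO only and 2 with IWR-1 only, each in a QESEQ list alone. Hoxd had 5 loci, 2 with DMSO only and 3 with IWR-1 only. With 1 library per treatment these differences between clusters were not tested.

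**Figure D3:**
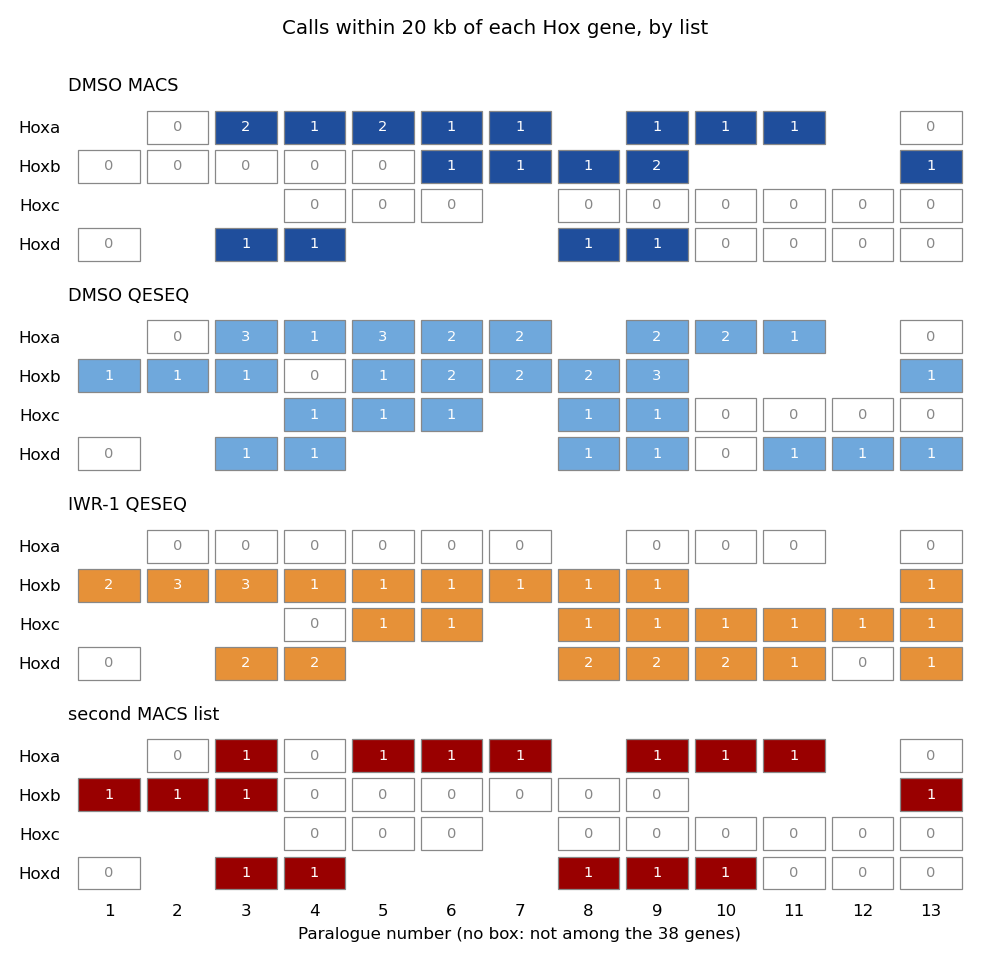
Number of calls within 20 kb of each of the 38 Hox genes, with the paralogue number on the x axis, the cluster on the y axis and 1 panel per list. Filled boxes have at least 1 call. Neighbours share calls, so that the 10 Hoxb genes with an IWR-1 QESEQ call stand on 5 calls and the 8 Hoxa genes with a DMSO MACS call on 2.

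At the anterior end of Hoxb, calls of the IWR-1 lists stood near gene starts. Hoxb1, one of the first Hox genes to be active in the primitive streak and later a gene of the hindbrain, had a locus centred 1786 bp upstream of its start, at chr11:96363805-96364127, outside any annotated gene. Both IWR-1 lists called it, the second MACS list with a score of 53.31 (percentile 17.4), and neither DMSO list did. The stretch shown above holds GGAGCC and CAGACA together with a run of 23 T. Hoxb2, which acts with Hoxb1 in the facial motor neurons, had a locus 1117 bp upstream of its main start, at chr11:96350258-96350771, in the QESEQ lists of both treatments. In Hoxb3 an IWR-1 QESEQ call lay 4992 bp upstream of the main start, inside the gene model and over exon 2 of the antisense gene Gm11536.

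The locus of Hoxb6, a gene of the thoracic skeleton and limb bud, lay 3651 bp upstream of its main start and inside its gene model, at chr11:96295220-96295820, and the QESEQ lists of both treatments called it. It lay 3.36 kb from the coding sequence of Hoxb6 and within intron 1 of the antisense gene Hoxb5os. Between this locus and the call in Hoxb3 were 42.6 kb with no call in any list. This stretch held Hoxb4, Hoxb5, the main transcript of Hoxb6 and the first part of the Hoxb3 gene model. On the other side of Hoxb13 from its common site, 14742 bp downstream of its start and in the long interval towards Hoxb9, was an IWR-1 QESEQ call that no other list had. It held no run of A or T above 4 bases, and it was the single locus of the 20 with no run of 7.

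In Hoxd, both IWR-1 lists called a locus 5081 bp downstream of the main start of Hoxd8, a trunk gene, at chr2:74709332-74710061, in intron 1 of the antisense gene Hoxd3os1. The second MACS list gave it a score of 61.05 (percentile 45.6), and no DMSO list called it. It was 2.23 kb upstream of the start of another coding transcript of Hoxd3. A second call, in the IWR-1 QESEQ list alone, lay 1519 bp downstream of the main start of Hoxd8 at chr2:74705811-74706457 and overlapped coding sequence in exon 2. It was the only one of the 20 loci that overlapped coding sequence of a main transcript of a listed Hox gene. Hoxd13, the digit gene at the posterior end, had a DMSO QESEQ call 6759 bp and an IWR-1 QESEQ call 17110 bp upstream of its start, in sequence with no annotated gene. The homeobox gene Evx2, which is not among the listed Hox genes, lies between these calls and is nearer to both than Hoxd13. From the Hoxd4 site to the end of the window past Hoxd1, 68.1 kb held no call in any list.

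In Hoxc, the nearest call to a start was an IWR-1 QESEQ call 348 bp upstream of Hoxc12, a gene of the posterior trunk and the hair follicle, at chr15:102936168-102936651. Hoxc8, which patterns the brachial spinal cord, had an IWR-1 QESEQ call 2361 bp upstream of its start and a DMSO QESEQ call 3133 bp downstream, over the untranslated part of its exon 2. The gene model of Hoxc5 spans both. The fourth Hoxc call, a DMSO QESEQ call, lay 11261 bp downstream of the start of Hoxc4. In Hoxa, a DMSO QESEQ call at chr6:52213612-52213887, 634 bp upstream of the main start of Hoxa3, overlapped exon 3 of the antisense gene Hoxaas3. The main transcript of Hoxa3 starts next to Hoxa7, so that this call was 1.83 kb from the coding sequence of Hoxa7.

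No call of any list lay within 20 kb of 3 of the 38 genes, Hoxa2, Hoxa13 and Hoxd1 (7.89%, interval 1.66 to 21.4), against 28.3% of all protein-coding genes. The 28.3% lies above the interval, which treats genes that share calls as separate. Hoxa2 and Hoxa13 missed the limit narrowly, with the nearest call 20258 bp and 21677 bp away, and that of Hoxd1 was 45908 bp away. No DMSO call lay within 20 kb of these 3 and of Hoxb4, Hoxc10, Hoxc11, Hoxc12, Hoxc13 and Hoxd10, although the last 6 had an IWR-1 QESEQ call in reach. Calls overlapped the gene bodies of 10 members, which were Hoxa3, Hoxa9, Hoxb2, Hoxb3, Hoxb6, Hoxc5, Hoxc8, Hoxd3, Hoxd4 and Hoxd8 (26.3%, interval 13.4 to 43.1), against 39.9% of all protein-coding genes, whose bodies are longer. Of the 20 loci, 16 were within the spans of the clusters and 9 overlapped a gene body.

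Few calls stood next to the outer edges of the 20 kb windows, but some genes missed a site narrowly. The Hoxa3 intron site was 20303 bp from Hoxa2, and the Hoxd4 site was 21654 bp from Hoxd10. The farthest common sites inside were those of Hoxb13, with a gap of 14459 bp between the locus and the gene body, and Hoxb9, with 16320 bp. The nearest common sites outside the windows of all listed genes were 21677 bp from Hoxa13, 23965 bp from Hoxa2 and 27362 bp from Hoxc13. Their scores were 60.91, 89.65 and 67.16. These 3 had an IWR-1 QESEQ call, in contrast with the 6 inside. A further common site outside, 47613 bp from Hoxb13 in intron 8 of Ttll6, had a score of 51.92 and no IWR-1 call.

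Of the 20 loci, 6 were centred within 2 kb of a main start (30%, interval 11.9 to 54.3), at Hoxa3, Hoxb1, Hoxb2, Hoxb8, Hoxc12 and Hoxd8. Around all protein-coding genes the share was 8.96%, but starts are dense in the clusters. Sequence within 2 kb of a main start made up 27.5% of the Hox windows and 5.78% of the windows of all protein-coding genes, so the share near starts was close to the share of sequence there.

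Sequence within the sites was compared with all common sites and with windows 2 kb away. A run of 7 A or T was in 6 of 6 common Hox sites, against 90.3% of all common sites and 29.7% of the windows 2 kb to either side of them, and in 3 of 12 such windows beside the Hox sites. Of the 20 loci, 19 held one. The Smad motif GGAGCC was in 1 of 6 sites and 5 of the 12 windows beside them, and in 17.4% of all common sites and 18.4% of all windows. For CAGACA the counts were 1 of 6 sites and 4 of 12 windows, with 32% and 34.5% over all. The GC-rich element GGCGCC was in 0 of 6 sites and 2 of 12 windows (2.66% and 1.95% over all). For the box palindrome GTCTAGAC they were 0 of 6 and 1 of 12 (0.411% and 0.363%). The TCF/LEF motif CTTTGTT was in 2 of 6 sites and 2 of 12 windows (11.9% and 12.5% over all). Its partner CTTTGAT was in 0 of 6 and 0 of 12 (7.47% and 8.31%). The other motifs are given in the same way, with the shares of all common sites and of all windows in brackets. TGATTNAT, the element of Hox with Pbx, was in 2 of 6 sites and 0 of 12 windows (5.53% and 7.43%). GNNATAAA, the Cdx element, was in 3 of 6 and 3 of 12 (23.2% and 26.5%). TGACTCA, the AP-1 element, was in 1 of 6 and 0 of 12 (6.68% and 7.27%). The element of the blood factors of the GATA family, AGATAA, was in 0 of 6 and 0 of 12 (21.1% and 24.9%). All were read on both strands. With 6 sites of 263 to 766 bp, these counts are small, and a match is a description of letters and no binding site.

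The runs differed by length. Length ranges were chosen after the sequences were seen. The Hox windows held 540 runs of at least 7 A or T, 88.4 per 100 kb, against 84 per 100 kb in the windows of all protein-coding genes. Of the 347 runs of 7 to 9 bases, 8 (2.31%) were in a call of any list, and of the 12 runs of at least 25 bases 11 were (91.7%, interval 61.5 to 99.8). Over all protein-coding genes the same shares were 1.29% and 50.8%. The 11 runs were each in a locus of their own. For 20 bases or more the Hox count was 16 of 24 (66.7%, interval 44.7 to 84.4), against 37.8%. Of these 12 runs of at least 25 bases, 7 were in a DMSO call and 8 in an IWR-1 call. The part of these runs in the calls, and in their differences between treatments, was not tested.

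**Figure D4:**
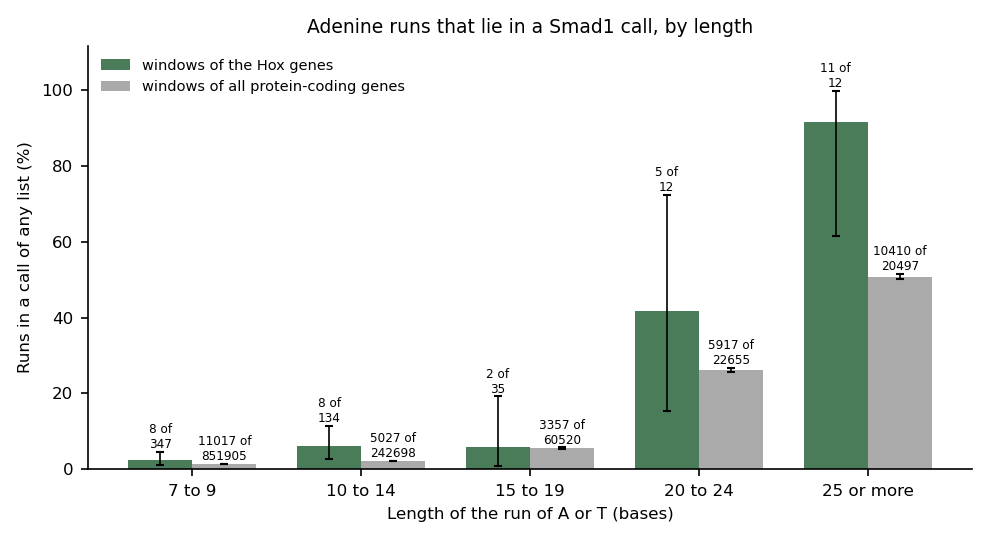
Share of runs of A or T that lie in a call of any of the 4 lists (y axis, percent) by length of the run (x axis, bases), for the Hox windows and the windows of all protein-coding genes. Error bars are 95% exact binomial intervals over runs, and the counts stand above the bars: 11 of 12 Hox runs of at least 25 bases are in a call and 8 of 347 of 7 to 9 bases.

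Genes that act upstream of the Hox genes or are related to them were counted in the same way, with gene length beside each count since long genes have wide windows. None of the 3 Cdx genes, the homeobox genes that act on the clusters in the posterior streak, had a common DMSO site within 20 kb, at a median gene body of 9.2 kb. Each had a call of a single list in reach, DMSO QESEQ at Cdx1, DMSO MACS at Cdx2 and IWR-1 QESEQ at Cdx4. In the retinoic acid pathway 2 of 10 genes had a common DMSO site, the receptor genes Rarb and Rarg, at a median of 31.9 kb. Among other homeobox genes of similar kind, 4 of 9 had one (Evx1, Gsx2, En1 and En2), at a median of 5.44 kb. Of the RNA genes in the clusters, 5 of 11 had one (Mir10b, Mir196a-1, Mir196b, Hottip and Hotairm1), at a median of 0.11 kb. The sites of the 3 miRNA genes are among the 6 common Hox sites and those of Hottip and Hotairm1 are those outside the windows of Hoxa13 and Hoxa2, so this count is not separate from the Hox count. All these shares are read against the 35.1% of all protein-coding genes.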

How the data were processed

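Smad1 ChIP and input chromatin of 2 treatments were sequenced by the authors, 1 library each. According to the submitters' processing notes, base calls came from CASAVA 1.8, reads were aligned to mm10 with Bowtie2 2.1.0 and peaks were called with MACS 1.0.1; QESEQ was the other caller. The authors deposited 5 peak lists as positions, and the 2 MACS lists also hold the MACS score per peak as deposited, the lowest being 50. No list holds read counts, so depth is unknown and intervals cover counting error only. Peaks rest on the authors' thresholds, so a missing call is not a missing signal.

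From these lists, peaks overlapping by 1 bp were matched, and peaks within 20 kb of GENCODE M21 gene bodies were counted. A gene's main transcript fixed its start. QESEQ positions were read like BED positions and printed counted from 1. Each site took the top score of the DMSO MACS peaks overlapping it. Shares carry 95% exact binomial (Clopper-Pearson) intervals. Motifs were read on both strands of whole sites. Overlap and motif code was tested on simulated data. Python 3.11.15, scipy 1.17.1, numpy 2.4.6 and matplotlib 3.10.9 were used. Named were each common site, each locus in at least 2 of the 4 lists and each call within 2 kb of a start; further calls and runs were named after their values were seen. Members and lists were chosen with earlier results of these data known. A further gene of the clusters is not analysed here. Alternatives were other windows, scores, overlaps and lists.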

Additional observations from a re-analysis of the deposited data

How the results depend on the processing

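The 20 kb window set the counts. A common DMSO site was in reach of 17 Hox genes at 20 kb, 11 at 10 kb, 29 at 50 kb and 4 for the gene bodies alone (0 kb); the sites numbered 6 at 20 kb, 10 at 50 kb and 3 at 0 kb, and the DMSO calls of either caller 12, 21 and 6. With DMSO QESEQ calls in place of common sites there were 12 calls near 29 genes. With a DMSO MACS score of at least 100, 1 site near 1 gene was left, and 1 DMSO call, upstream of Hoxb13. The share of common sites without an IWR-1 QESEQ call was 70% at 50 kb, and 66.7% when the second MACS list stood in for, or was added to, the IWR-1 QESEQ list. The median percentile by score ranged from 50.3 to 68. No paired analysis was possible because each treatment had 1 library, and for the same reason none could be left out.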

Other observations

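Among the Polycomb and Trithorax genes, which keep Hox clusters silent or active, 5 of 11 had a common DMSO site within 20 kb (Ezh2, Suz12, Jarid2, Cbx2 and Kdm6b), against 35.1% of all protein-coding genes, at a median gene body of 41 kb. Of their 9 sites, 6 had no IWR-1 QESEQ call, against 63% of all common sites. The site at Kdm6b, which codes for an H3K27 demethylase, scored 477.33 in the DMSO MACS list (percentile 98.5 of all calls of that list), above every common site within 20 kb of the 38 Hox genes. It overlapped calls of the IWR-1 QESEQ list and of the second MACS list.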
